A study of Mus musculus with 12 samples.

Results

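The 9 genes described here encode small leucine-rich proteoglycans (Dcn, Bgn, Aspn, Lum, Fmod, Prelp, Omd and Ogn) and the large proteoglycan versican (Vcan). They were chosen by name from a table of 24054 genes, and all 9 were among the 14876 genes with enough counts to test. Polyadenylated RNA came from primary mouse embryonic fibroblasts (MEFs), connective tissue cells grown from embryos and, in every group, cultured with fetal bovine serum at low oxygen. The 4 genotypes, with 3 libraries each, were wild type (WT), Blm -/- (Blm KO), Recql -/- (Recql KO) and Blm -/- Recql -/- (double KO). Blm and Recql encode DNA helicases of the RecQ family, and the study set each deficient genotype against WT. The labels give neither the alleles, the strain and the embryonic age nor say if replicate libraries represent different embryos. Each deficient genotype held libraries both high and low in Y-linked transcripts, so its 3 libraries did not all repeat 1 embryo's RNA; for WT this cannot be told. The p-values measure the spread between libraries.

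Small leucine-rich proteoglycans are secreted proteins built around a curved stack of leucine-rich repeats, and most carry sulfated sugar chains. They bind collagen fibrils and set their spacing and diameter, and several also hold growth factors such as TGF-beta in the matrix. Class I holds decorin (Dcn), biglycan (Bgn) and asporin (Aspn). Class II holds lumican (Lum), fibromodulin (Fmod), PRELP (Prelp) and osteomodulin (Omd), and osteoglycin (Ogn) belongs to class III. Versican is not a member of the family. It carries many chondroitin sulfate chains and binds hyaluronan, forming the loose matrix around migrating and dividing cells.

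Most members lie in clusters. On mm10 chromosome 13, Aspn (49544443 to 49567565), Omd (49582462 to 49592822) and Ogn (49608046 to 49624501) follow each other on the plus strand, with 14.9 kb between Aspn and Omd and 15.2 kb between Omd and Ogn. Ecm2, which encodes another leucine-rich repeat matrix protein, precedes Aspn. Dcn (97479609 to 97518143) and Lum (97565128 to 97572703) are 47.0 kb apart on chromosome 10, followed by Kera and Epyc, 2 more genes of the family. On chromosome 1, Prelp (133910304 to 133921414, minus strand) lies 115.8 kb from Fmod (134037254 to 134048277) and next to Optc, the opticin gene. Bgn (73483602 to 73495933) is on the X chromosome, and Vcan (89655312 to 89742509, minus strand) is on chromosome 13, 40.03 Mb from Ogn and 43660 bases from Hapln1, which encodes a protein that links versican to hyaluronan.

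The 3 neighbours on chromosome 13 fell together in Recql KO, so the 250 bases upstream of their RefSeq start sites (GRCm38.p6, the same assembly as mm10, plus strand) are shown, with every match to TATAAA or its reverse complement in capitals.
Aspn, chr13:49544193-49544442: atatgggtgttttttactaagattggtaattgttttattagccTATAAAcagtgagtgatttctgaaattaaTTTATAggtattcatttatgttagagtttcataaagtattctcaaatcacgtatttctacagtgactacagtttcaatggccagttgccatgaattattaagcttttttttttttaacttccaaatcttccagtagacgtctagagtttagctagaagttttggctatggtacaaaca
Omd, chr13:49582212-49582461: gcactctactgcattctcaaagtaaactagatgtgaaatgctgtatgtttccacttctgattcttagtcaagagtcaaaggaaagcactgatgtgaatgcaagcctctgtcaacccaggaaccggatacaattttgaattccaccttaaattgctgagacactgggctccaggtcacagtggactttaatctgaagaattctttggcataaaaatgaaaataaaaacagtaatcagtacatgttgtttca
Ogn, chr13:49607765-49608014: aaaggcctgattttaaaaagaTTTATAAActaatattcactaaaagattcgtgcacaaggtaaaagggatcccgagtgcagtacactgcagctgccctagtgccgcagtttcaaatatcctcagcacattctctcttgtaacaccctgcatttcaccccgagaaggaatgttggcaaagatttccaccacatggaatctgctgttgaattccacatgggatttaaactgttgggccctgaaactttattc

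For comparison, the same stretch of Bgn, the most abundant member, is shown with matches to CCGCCC or its reverse complement, the core bound by Sp1 factors, in capitals.
Bgn, chrX:73483351-73483600: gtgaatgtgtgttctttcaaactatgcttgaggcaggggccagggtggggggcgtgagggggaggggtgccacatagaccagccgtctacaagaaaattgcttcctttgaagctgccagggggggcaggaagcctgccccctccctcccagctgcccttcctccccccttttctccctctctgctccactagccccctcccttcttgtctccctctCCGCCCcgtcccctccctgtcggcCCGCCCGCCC

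Promoters of 300 bases (250 before and 50 after the start) were found in the RefSeq table for 7 of 9 members and searched on both strands for 5 motifs. TATAAA was present in 2 of 7 (Aspn and Ogn), against 13.6% of all 32851 promoters. In Aspn it began 207 and 178 bases upstream of the start and in Ogn 229 and 227 bases upstream, the last pair overlapping. CCGCCC was present in 2 of 7 (Bgn and Vcan; 35.7% of all) and the SMAD-binding core CAGAC in 2 of 7 (Fmod and Prelp; 49.6%). The E-box CANNTG was present in 6 of 7 (all but Omd; 72.3%) and the AP-1 motif TGANTCA in 0 of 7 (7.81%). None of the 5 motifs was present in all 3 promoters of the neighbours that fell together.

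Library totals were 47758552 to 59296354 expected counts. As a check of the labels, Blm fell from 20.7 ± 1.85 CPM (counts scaled to a fixed library total after TMM normalisation; SD, n = 3) in WT to 4.13 ± 1.32 in Blm KO (edgeR adjusted p = 0.00211) and 5.5 ± 1.57 in double KO (edgeR adjusted p = 0.0105). Recql was 27.7 ± 1.86 CPM in WT and 25.2 ± 4.16 in the libraries labelled Recql KO (log2 fold change -0.13, edgeR adjusted p = 0.642), so every direction given for Recql KO or double KO rests on the label. All 3 WT libraries and 1 library of each other genotype were high in Y-linked transcripts (229 to 283 CPM summed over 4 genes), and the other 6 held 0.676 to 28.7 CPM. Fibroblast markers were abundant in every library. Their 10 genes summed to 27184 to 28408 CPM in WT, 31924 to 39940 in Blm KO, 14245 to 18014 in Recql KO and 32366 to 36391 in double KO. Much of each sum came from Col1a1, Col1a2 and Col3a1, which recur below among the fibrils that the members bind. Their means were 10006, 6474 and 2743 CPM in WT and 5541, 3481 and 625 CPM in Recql KO. Markers of other cell types were scarcer. The 5 smooth muscle and myofibroblast genes summed to 4116 to 5573 CPM in WT and 2949 to 6146 in Blm KO. In Recql KO and double KO they summed to 4523 to 6419 and 6392 to 7681 CPM. The 7 chondrocyte genes summed to 602 to 1412 CPM in WT and 86.5 to 102 in Recql KO, and 5 tenocyte genes to 40.6 to 58.3 and 17.3 to 20.6 CPM.

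Biglycan dominated the members at the RNA level. In WT the level per length of gene model was 2143 ± 429 CPM per kb (SD, n = 3) for Bgn, 305 ± 88.9 for Aspn, 213 ± 99.2 for Ogn, 64.4 ± 21.7 for Fmod and 27.9 ± 9.8 for Vcan. Omd (14.8 ± 0.981), Prelp (14 ± 6.13), Lum (11.1 ± 7.98) and Dcn (10.8 ± 1.43) followed. The mean ± SD ranges overlapped between the neighbours Aspn and Ogn, Omd and Prelp, Prelp and Lum, and Lum and Dcn, and not between the other neighbours in this order, nor between Omd and Dcn. Decorin, a textbook product of adult fibroblasts, was thus last in the order in these WT cells. Its place depended on the gene model: with the longest coding transcript (1758 bases in place of a retained-intron model of 4692) the Dcn level was 28.7 ± 3.83 CPM per kb, the fifth in the order. In Recql KO the order changed to Bgn (1881 ± 231 CPM per kb), Vcan (46.9 ± 5.77), Dcn (45.4 ± 15.5), Aspn (45.2 ± 23.9), Ogn (26.8 ± 11.3), Prelp (22 ± 6.52), Fmod (21.6 ± 8.35), Lum (4.71 ± 5.67) and Omd (2.72 ± 0.832), where the mean ± SD ranges overlapped between all neighbours except Bgn and Vcan, and Fmod and Lum. With the longest coding transcript Dcn was at 121 ± 41.3 CPM per kb in Recql KO, the second after Bgn.

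All 9 members together took 0.531% to 1.06% of a library's counts. Their summed CPM was 9072, 6171 and 7800 for the WT libraries, 9824, 8851 and 10610 for Blm KO, 7075, 5313 and 6065 for Recql KO and 8023, 5936 and 8306 for double KO. Bgn supplied 69.9% to 83.7% of that sum and ranked between the fourth and the ninth among all genes tested in a library. Without Bgn the sum was 1447 to 2348 CPM in WT, 1788 to 2775 in Blm KO, 864 to 1402 in Recql KO and 1384 to 1817 in double KO, so that the Recql KO libraries lay below every WT library.

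**Figure D1:**
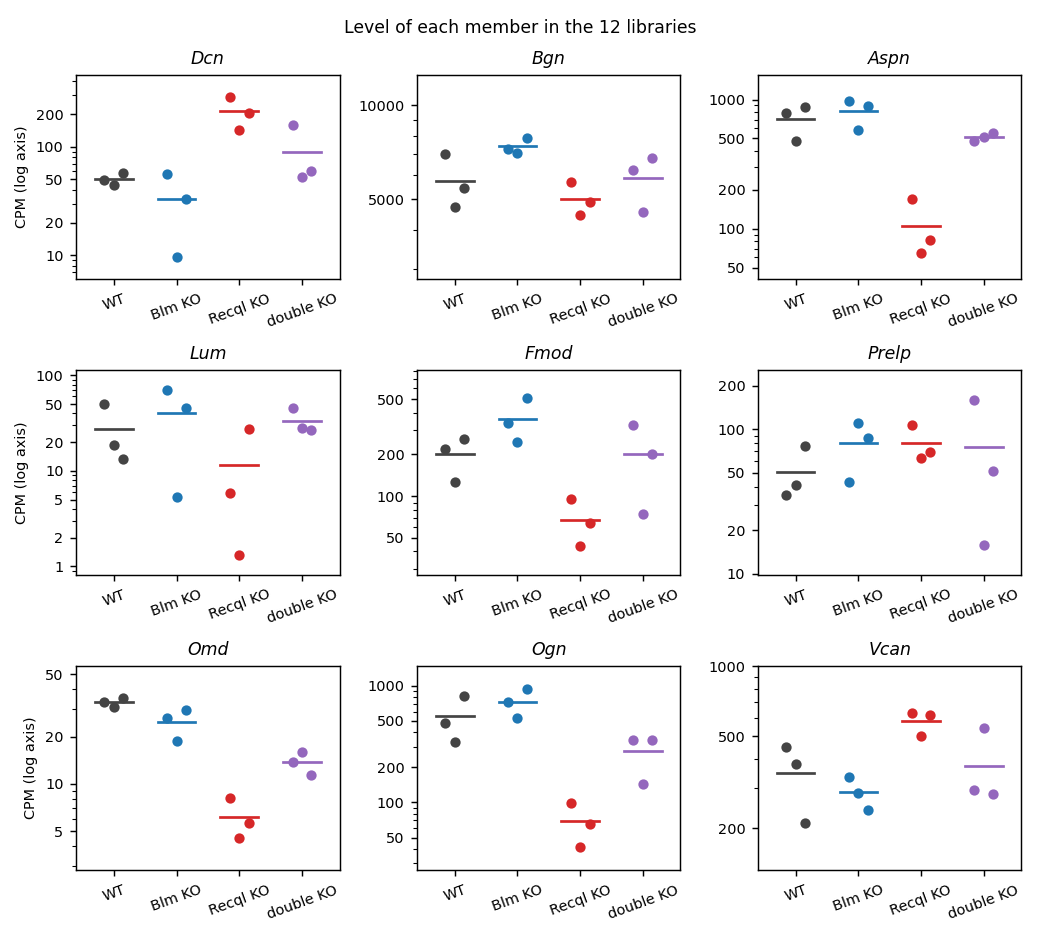
Level of each member, in CPM on a log axis, in the 12 libraries (points) with the mean of each genotype (line). Aspn, Ogn and Omd are lowest in the 3 Recql KO libraries, Fmod is lower there than in every WT and Blm KO library, and Dcn and Vcan lie above every WT library in Recql KO.

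Against WT, 5 of 9 members changed in Recql KO: Omd, Aspn, Ogn and Fmod fell, and Dcn rose. Over all genes tested, 29.9% were called in that comparison, 14.2% higher and 15.6% lower. The median log2 fold change of the members was -1.24, against -0.01 over all genes. In Recql KO 6 of 9 members did not overlap with WT, the 5 called and Vcan, beside 49.3% of all genes. In bulk RNA, fewer cells of a type and less RNA per cell cannot be told apart.

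No member passed against WT in Blm KO or in double KO. In Blm KO edgeR called 0 of 9 (0 at an unadjusted p under 0.05, and 0 by DESeq2), beside 0.753% of all genes, and Bgn and Omd did not overlap with WT, beside 24.8%. In double KO edgeR called 0 of 9 (2 at an unadjusted p under 0.05, and 1 by DESeq2), beside 0.121% of all genes, and 1 member, Omd, did not overlap with WT, beside 14.1%. Double KO against Blm KO also gave 0 of 9 (3 at an unadjusted p under 0.05, and 2 by DESeq2), beside 1.96%, although 4 members, Bgn, Ogn, Aspn and Omd, were lower in all 3 double KO libraries than in any Blm KO library, beside 26.2% without overlap.

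Against Recql KO, 4 members were higher in double KO (Aspn, Omd, Ogn and Fmod), beside 24.7% of all genes called and 13.2% called higher. Aspn, Omd and Ogn did not overlap between these 2 genotypes, beside 43.6% of all genes. The comparisons with WT share their WT libraries, and those with double KO share the double KO libraries, so the calls are not independent. The interaction asks whether the difference between double KO and Blm KO equals that between Recql KO and WT. It was called for 2 members, Aspn and Omd, both positive, beside 10.4% of all genes and 5.86% called positive. A test for any difference among the 4 genotypes called the 5 members changed in Recql KO, beside 35.9% of all genes.

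**Figure D2:**
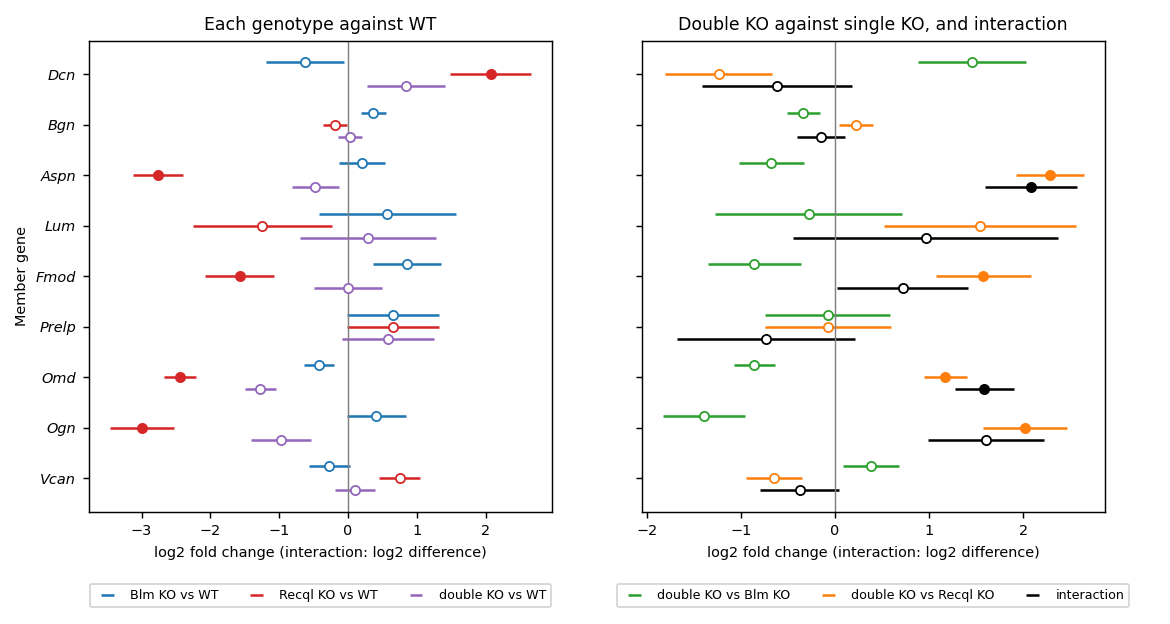
log2 fold changes of the 9 members with the standard error of the model (bars), for each genotype against WT (left) and for double KO against each single KO with the interaction (right); filled points passed edgeR at an adjusted p under 0.05. Filled points against WT belong to Recql KO alone, and the interaction is filled for Aspn and Omd.

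Of class I, asporin fell most. Aspn, whose protein binds TGF-beta and collagen, had CPM values of 786, 477 and 870 for the WT libraries, 977, 583 and 898 for Blm KO, 169, 65.1 and 82 for Recql KO and 476, 514 and 548 for double KO. Every Recql KO library was below every other library, while the double KO values overlapped with WT at its low end. In Recql KO it fell by 2.75 ± 0.36 SE on the log2 scale (6.75-fold, edgeR adjusted p = 0.000763), and the call held whichever of the 12 libraries was left out. The level in double KO was 4.87-fold higher than in Recql KO (edgeR adjusted p = 0.0019); in libraries high in Y-linked transcripts this did not pass (edgeR adjusted p = 0.128). The interaction was 2.08 ± 0.49 SE (edgeR adjusted p = 0.0259), and that call was lost without any 1 of WT replicate 1 or 3, Blm KO replicate 2 or 3 and Recql KO replicate 2 or 3 (edgeR adjusted p = 0.0505 to 0.0617).

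Decorin moved the other way. Dcn, whose protein binds collagen I and TGF-beta and antagonises growth factor receptors, had CPM values of 49.6, 44.2 and 57.6 for the WT libraries, 56.3, 9.65 and 32.7 for Blm KO, 289, 144 and 206 for Recql KO and 158, 52.3 and 59.9 for double KO. All 3 Recql KO libraries were above all WT and Blm KO libraries, and double KO replicate 1 stood with them, above Recql KO replicate 2. In Recql KO Dcn rose 4.22-fold (2.08 ± 0.58 SE on the log2 scale; adjusted p = 0.0232 by edgeR). The call was lost without WT replicate 1, 2 or 3 or Recql KO replicate 1 (log2 fold changes 1.80 to 2.19, edgeR adjusted p = 0.0583 to 0.0754) and with no filter on low counts (edgeR adjusted p = 0.0507). Double KO against Recql KO gave -1.24 ± 0.57 SE (edgeR adjusted p = 0.136). It passed without double KO replicate 1 (-1.93, edgeR adjusted p = 0.0433), the double KO library highest in Dcn. In libraries high in Y-linked transcripts the value was -2.47. That setting leaves 1 library of each of these genotypes and also drops double KO replicate 1. In Blm KO the log2 fold change was -0.62 ± 0.57 SE (edgeR adjusted p = 0.574), and replicate 2 of that genotype held the lowest Dcn level of all libraries.

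Biglycan, the close relative of decorin that also signals through Toll-like receptors when released, had the smallest standard errors of the members. Bgn had CPM values of 6967, 4724 and 5453 for the WT libraries, 7257, 7063 and 7835 for Blm KO, 5672, 4449 and 4926 for Recql KO and 6206, 4551 and 6780 for double KO. The Blm KO libraries were the 3 highest in the series, just above WT replicate 1. The log2 fold change was 0.37 ± 0.18 SE in Blm KO (edgeR adjusted p = 0.288), -0.19 ± 0.18 in Recql KO (0.449) and 0.03 ± 0.18 in double KO (0.964). Bgn is X-linked, and libraries differed in Y-linked transcripts. Among libraries high in Y-linked transcripts, the value in Blm KO was 0.35 (edgeR adjusted p = 0.684), with 1 library of each deficient genotype assumed to vary like WT.

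Of class II, osteomodulin gave the smallest p among the members. Omd, a keratan sulfate proteoglycan of mineralised tissues, had CPM values of 33.3, 31 and 35.4 for the WT libraries, 26.3, 18.8 and 29.7 for Blm KO, 8.17, 4.51 and 5.67 for Recql KO and 13.8, 16.1 and 11.4 for double KO. The 4 genotypes did not overlap with each other and lay in the order WT, Blm KO, double KO and Recql KO. Omd fell 5.43-fold in Recql KO (-2.44 ± 0.23 SE on the log2 scale; adjusted p = 0.000188 by edgeR), a call that held whichever library was left out. In double KO it was 2.41-fold lower than WT without passing (-1.27 ± 0.22 SE, edgeR adjusted p = 0.0713), and it passed with DESeq2 (adjusted p = 2.82e-05) and without Blm KO replicate 2 or Recql KO replicate 1 (edgeR adjusted p = 0.0452 and 0.0393). Double KO was 2.25-fold above Recql KO (edgeR adjusted p = 0.005), which did not pass in libraries high in Y-linked transcripts (log2 fold change 0.97, edgeR adjusted p = 0.0699). The interaction was 1.59 ± 0.32 SE (edgeR adjusted p = 0.0147) and held whichever library was left out.

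Fibromodulin, which binds collagen I at the same site as lumican and delays fibril growth, was also lower in Recql KO. Fmod had CPM values of 219, 126 and 258 for the WT libraries, 336, 247 and 508 for Blm KO, 95.1, 43.4 and 63.9 for Recql KO and 327, 74.1 and 201 for double KO. The Recql KO libraries lay below all WT and Blm KO libraries, but double KO replicate 2 fell among them. In Recql KO Fmod fell 2.98-fold (-1.57 ± 0.51 SE on the log2 scale; adjusted p = 0.0384 by edgeR). That call was lost without any 1 of WT replicate 1 or 3, Recql KO replicate 2 or 3, Blm KO replicate 1 or double KO replicate 3 (edgeR adjusted p = 0.051 to 0.13). It was also lost in libraries high in Y-linked transcripts (log2 fold change -1.08, edgeR adjusted p = 0.2), after adding the Y-linked level to the model (-1.69, edgeR adjusted p = 0.0579) and with no filter on low counts (edgeR adjusted p = 0.0755). The higher level in double KO than in Recql KO (2.97-fold, edgeR adjusted p = 0.0444) did not pass when any 1 of 9 libraries was left out, and in libraries high in Y-linked transcripts its sign turned (-0.37, edgeR adjusted p = 0.729).

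Lumican and PRELP varied too widely within genotypes to be told apart. Lum, the keratan sulfate proteoglycan of cornea and skin, had CPM values of 49.5, 18.8 and 13.3 for the WT libraries, 70.9, 5.31 and 45.3 for Blm KO, 5.93, 1.31 and 27.3 for Recql KO and 45, 28.1 and 26.8 for double KO. Recql KO replicate 3 lay within the WT range while replicate 2 held 76 counts. The log2 fold change in Recql KO was -1.24 ± 1.01 SE (edgeR adjusted p = 0.378), and -2.91 without replicate 3 of that genotype. Prelp, whose protein anchors basement membranes to collagen, ranged from 15.7 CPM in double KO replicate 2 to 160 in double KO replicate 1, so that this 1 genotype spanned all other libraries. Its log2 fold changes against WT were 0.66, 0.66 and 0.58 in Blm KO, Recql KO and double KO, each with an SE of 0.67.

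Osteoglycin, of class III, had the largest fold. Ogn, first described as a bone-forming factor and a corneal keratan sulfate proteoglycan, had CPM values of 485, 330 and 827 for the WT libraries, 724, 530 and 933 for Blm KO, 99.2, 41.9 and 64.8 for Recql KO and 344, 144 and 345 for double KO. The Recql KO libraries were below all others, and double KO overlapped with WT only at 1 WT library. In Recql KO Ogn fell 7.97-fold (-3.00 ± 0.47 SE on the log2 scale; adjusted p = 0.00153 by edgeR). The level in double KO was 4.05-fold above Recql KO (edgeR adjusted p = 0.00949), and the log2 fold change against WT was -0.98 ± 0.44 SE (edgeR adjusted p = 0.455). In libraries high in Y-linked transcripts the difference between Recql KO and WT was -2.46 and did not pass (edgeR adjusted p = 0.0904), and that between double KO and Recql KO was 0.53 (edgeR adjusted p = 0.703).

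Versican was higher in Recql KO without passing. Vcan had CPM values of 447, 380 and 211 for the WT libraries, 334, 284 and 241 for Blm KO, 630, 501 and 619 for Recql KO and 293, 541 and 282 for double KO. All 3 Recql KO libraries were above all WT libraries, and double KO replicate 2 stood among them. The log2 fold change was 0.75 ± 0.30 SE (edgeR adjusted p = 0.0805); it passed with DESeq2 (adjusted p = 0.035) and without double KO replicate 2 (edgeR adjusted p = 0.0379). Against WT the values in Blm KO and double KO were -0.27 ± 0.30 and 0.10 ± 0.30 SE (edgeR adjusted p = 0.642 and 0.932). Double KO against Recql KO gave -0.65 ± 0.30 SE (edgeR adjusted p = 0.136), and passed without double KO replicate 2 (-1.02, edgeR adjusted p = 0.0267). It also passed in libraries low in Y-linked transcripts (-0.97, edgeR adjusted p = 0.0131), a setting added after seeing the data that drops the same library. In libraries high in Y-linked transcripts, with 1 library of each deficient genotype, the log2 fold change against WT was 0.86 in Recql KO and 0.63 in double KO.

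**Figure D3:**
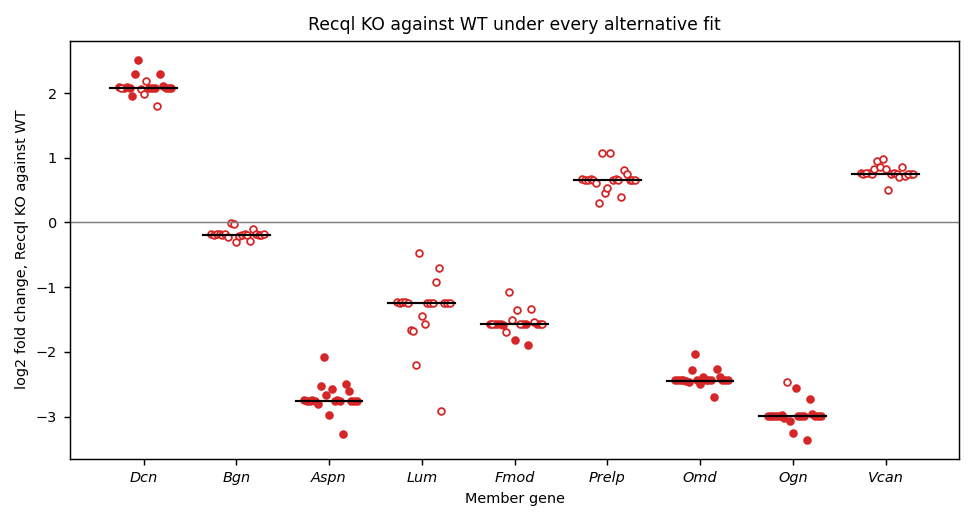
log2 fold change of each member in Recql KO against WT in the reported fit (black line) and under every alternative fit (points, filled where the adjusted p was under 0.05). Aspn and Omd are filled throughout, Ogn is open once, and Dcn and Fmod are open under several alternatives.

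Members of 1 locus did not always move together. On chromosome 13, Ecm2 (1.45 ± 0.388 CPM in WT, SD, n = 3) fell with its neighbours in Recql KO, to 0.4 ± 0.143 CPM (-1.86 ± 0.34 SE on the log2 scale; adjusted p = 0.00311 by edgeR). Outside the 4 genes the values were smaller: -0.24 for Ippk (edgeR adjusted p = 0.168), 0.36 for Nol8 (0.0331) and -0.05 for Iars (0.76). Cenpp, a centromere protein gene on the opposite strand that spans Aspn, Omd and Ogn, fell from 8.41 ± 1.38 to 4.21 ± 0.765 CPM (edgeR adjusted p = 0.00293). Its exons shared 7 bases with those of Aspn and 0 with those of Omd and Ogn, and the strand setting of the counts was not given in the sources used here.

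The other loci held mixed values. On chromosome 10, Dcn rose in Recql KO while Lum did not pass, and Epyc, the epiphycan gene of cartilage, was called lower at levels near the limit of counting (0.665, 0.605 and 0.0569 CPM in WT; 0, 0.0344 and 0 in Recql KO, edgeR adjusted p = 0.0218). Kera was at or under 0.136 CPM in every library and was not tested. On chromosome 1, Fmod fell while Prelp (0.66, edgeR adjusted p = 0.484) and Optc (-0.46, edgeR adjusted p = 0.269) did not pass. The exons of Prelp share 350 bases with those of the antisense gene Gm15851, which is not among the genes counted. Without the strand setting, it cannot be told whether reads of Gm15851 were counted for Prelp.

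**Figure D4:**
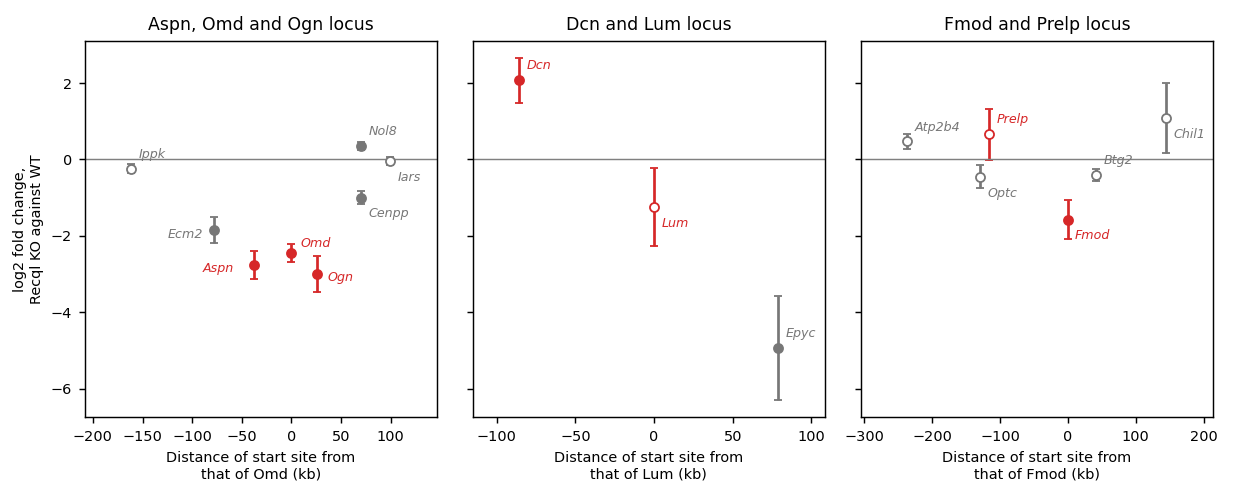
log2 fold change in Recql KO against WT with its standard error, by distance in kb of each gene's start site from that of Omd, Lum or Fmod; members are red, other tested genes of the region grey, and filled points passed at an adjusted p under 0.05. Ecm2, Aspn, Omd and Ogn lie together between -1.86 and -3.00. Dcn lies above 0, and Lum lies below 0 without passing (-1.24 ± 1.01 SE). Epyc rests on few counts.

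Across the 12 libraries, which share their depth scaling and genotypes, the log2 levels of Ogn and Aspn had a Pearson r of 0.95, those of Fmod and Ogn 0.94, and those of Aspn and Omd 0.92. With each genotype's mean removed, r was 0.71, 0.92 and 0.79. Dcn and Ogn showed the opposite sign in these measures: r was -0.67 over the libraries and 0.59 with the genotype means removed. Vcan ran against Ogn in both (-0.84 and -0.61). Among 11955 genes of at least 1 CPM, those with the highest r were Wnt16 and Mgp for Ogn (both 0.98), Pccb and Ptprd for Aspn (0.99 and 0.98), Gabpb2 and Peg10 for Omd (both 0.94) and Islr and Setbp1 for Fmod (both 0.98). For Dcn they were Hoxc4 and Bace2 (0.95 and 0.93), for Bgn Zfp935 and Slc25a35 (0.96 and 0.95), for Lum Gpm6b and Sntb1 (0.91 and 0.90), for Prelp they included Zc2hc1a (0.93) and for Vcan Gcfc2 and Casp8 (both 0.94).

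The genes that work with the members were followed in 8 lists. No listed gene passed against WT in Blm KO or double KO, beside 0.753% and 0.121% of all genes called. The list of fibrils and fibres, picked after its values were seen, still lay mostly above 0 in both. In Blm KO 14 of its 18 genes were above 0 and 10 had an unadjusted edgeR p under 0.05 (2806 of all 14876). In double KO these counts were 17 and 7 (1605 of all). Its median log2 fold changes were 0.40 and 0.42, beside 0.005 and 0.007 over all genes. In Recql KO the fibrils and fibres that the members bind had 10 of 18 genes lower and 2 higher (median log2 fold change -0.49). Among them were Eln, the elastin gene, which fell 33.8-fold from 61.9 ± 11.1 to 1.85 ± 1.24 CPM (SD, n = 3; edgeR adjusted p = 0.00016), Col3a1 (4.39-fold lower) and Col1a2 (1.86-fold lower). Of the other leucine-rich proteoglycan genes, 3 of 8 tested fell (Ecm2, Epyc and Podn) and Tsku, the tsukushi gene, rose 1.45-fold (median -0.79). Among genes of hyaluronan and its binding proteins 4 of 16 fell and 2 rose (median 0.15): Hapln1 fell from 5.77 ± 2.25 to 0.571 ± 0.376 CPM (10.2-fold; adjusted p = 0.0032 by edgeR), Itih5, of a hyaluronan-binding protein family, fell 4.26-fold, and the hyaluronan receptor gene Cd44 rose 2.45-fold. In Recql KO the median of each of these lists stands beside -0.01 over all genes. The counts of calls in Recql KO stand beside 14.2% of all genes called higher and 15.6% called lower.

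Enzymes that build or cut the members went in both directions in Recql KO, beside 14.2% of all genes called higher and 15.6% called lower. Counts near those shares do not set a list apart. Of 29 genes for chondroitin and dermatan sulfate synthesis 8 fell and 3 rose (median 0.01). The sulfotransferase gene Chst11 rose 1.93-fold (edgeR adjusted p = 0.0014), while Chsy3, a chondroitin synthase gene, fell 2.13-fold and Papss1, which makes the sulfate donor, fell 1.36-fold. Of 9 keratan sulfate genes 2 rose (Chst1, 2.02-fold, and B4galt1, 1.28-fold) and 1 fell (B3gnt2, 1.37-fold; median -0.09). Of 15 genes for proteoglycan cleavage 3 rose and 4 fell (median -0.31): Tll1, a protease gene of the BMP1 family that processes matrix precursors, rose 3.96-fold from 89.1 ± 28.2 to 352 ± 49.8 CPM (SD, n = 3; edgeR adjusted p = 0.00159). The versican-cutting protease genes Adamts20 and Adamts15 fell 13.7-fold and 12.3-fold (edgeR adjusted p = 0.00224 and 0.00256).

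Receptors, growth factors and other proteoglycans also split in Recql KO, again beside 14.2% of all genes called higher and 15.6% called lower. Of 18 receptor and growth factor genes 4 rose and 4 fell in Recql KO (median 0.23). Lrp1, an endocytic receptor gene whose product takes up decorin, rose 1.89-fold, Vegfa rose 2.02-fold, and Tgfb3, a ligand held by several members, fell 2.07-fold (edgeR adjusted p = 0.000937, 0.00157 and 0.00189). Of 21 genes for other proteoglycans 4 rose and 3 fell (median -0.01): the glypican gene Gpc3 fell 18.5-fold from 143 ± 41.3 to 7.74 ± 2.08 CPM (SD, n = 3; edgeR adjusted p = 0.000564), Spock2 fell 4.14-fold, and the syndecan gene Sdc3 rose 1.97-fold. In double KO against Recql KO the collagen and fibre list had 11 of 18 genes higher and 1 lower, with Eln, Col1a2 and Col3a1 of smallest adjusted p. Of all genes tested, 24.7% were called in that comparison, and 13.2% of all genes tested were called higher. Double KO against Blm KO gave 2 calls in the 8 lists, beside 1.96% of all genes. They were the sulfotransferase gene Chst15 (2.22-fold higher, edgeR adjusted p = 0.0306) and the tenascin C gene Tnc (2.47-fold higher, edgeR adjusted p = 0.0324).

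**Figure D5:**
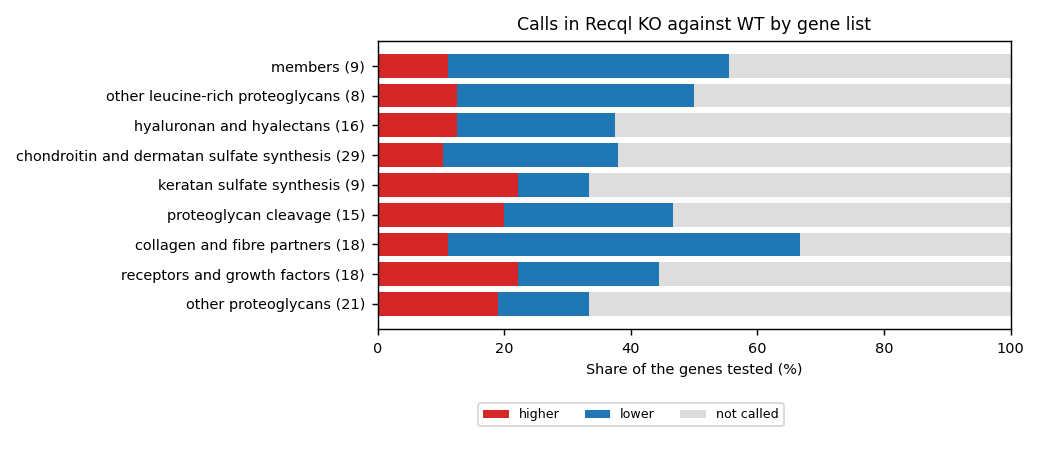
Share of the tested genes of each list, with their number in brackets, that passed edgeR at an adjusted p under 0.05 in Recql KO against WT, higher (red), lower (blue) or neither (grey). The collagen and fibre partners hold the most calls, 10 lower and 2 higher of 18. Over all genes tested 29.9% were called.

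Some markers of several cell types were lower in Recql KO, where 15.6% of all genes tested were called lower and 14.2% higher. In lists this short, counts near those shares do not set a cell type apart. Among chondrocyte markers 4 of 6 tested fell (Acan, Col2a1, Col9a1 and Comp), among tenocyte markers 3 of 4 (Scx, Thbs4 and Tnmd), among osteoblast markers 2 of 6 (Dmp1 and Runx2) and among fibroblast markers 4 of 10 (Col1a1, Col1a2, Col3a1 and Fstl1), with none higher in these 4 lists. Of epithelial and mesothelial markers 4 of 7 tested fell (Krt8, Krt18, Msln and Upk3b), their sum being 37.6 to 120 CPM in WT and 10.9 to 18.1 in Recql KO. Of neural markers 1 of 5 tested rose (Tubb3; summed 26 to 47.4 and 59.4 to 72.9 CPM). Of endothelial markers 2 of 4 tested fell (Emcn and Kdr; summed 5.58 to 16.5 and 2.82 to 3.94 CPM), with Cldn5 listed at 0 in all libraries. Smooth muscle and myofibroblast markers had 0 of 5 called. Markers of macrophages and blood summed to 4.55 to 6.35 CPM in WT and 3.48 to 5.34 in Recql KO, where 1 of 3 tested fell (Cd68), and Hbb-bs was listed at 0 in all libraries. Skeletal muscle (Des) and adipocyte (Fabp4) markers had 1 lower each, of 3 and 2 tested. The part of these cell types in the levels of the members was not tested.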

How the data were processed

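The authors deposited expected counts per gene in 12 libraries, the estimated counts that need not be whole. Per the submitters' processing notes they used Bowtie2 2.1.0, RSEM 1.2.15 and mm10; annotation, strand setting and read filters are not given in the sources used here. Counts were rounded and tested in R 4.3.3 with edgeR 4.0.16: filterByExpr (14876 genes, 99.99% of counts), TMM scaling, 1 mean per genotype over all 12 libraries (8 residual degrees of freedom), robust quasi-likelihood F tests and Benjamini-Hochberg adjustment over all genes tested, with an adjusted p under 0.05 called. The SE is the log2 fold change over the root of F. Lengths and positions came from GENCODE M21. Libraries of a genotype differed by far more than counting noise (chi-square per degree of freedom 25.5 to 167), and 3 counts correspond to 0.0506 to 0.0628 CPM (counting error only). In simulated counts of Recql KO and WT, fitted alone (14465 genes), 67, 67 and 66 genes of at least 1 CPM were changed 1.5-fold, 2-fold and 4-fold. Of these, 34.3%, 79.1% and 98.5% were recovered. The reported fit spans all 12 libraries and called 29.9% of genes in that comparison, so these rates need not hold for it. Alternatives were other scaling, filters, DESeq2 1.42.0, groups compared only, replicate block, Y-linked level, leaving out each library and, added after seeing the data, libraries low in Y-linked transcripts and coding transcript lengths. Members and lists were chosen with earlier results of these data known. Named genes were the members, Blm and Recql, up to 3 called genes of a list with the smallest adjusted p in each comparison with WT, the 2 genes most like each member (1 of them is not reported here), and neighbours; other called genes of a list or marker group, Chst15 and Tnc were named after their values were seen.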

Additional observations from a re-analysis of the deposited data

Results flagged for a closer look

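The difference between double KO and Blm KO was not the same as that between Recql KO and WT for 2 members, by the interaction test of the edgeR fit. For Aspn the interaction was 2.08 on the log2 scale, from -2.75 in Recql KO against WT and -0.68 in double KO against Blm KO. For Omd it was 1.59, from -2.44 and -0.86. In libraries high in Y-linked transcripts, with 1 library of each deficient genotype, neither passed (1.13 and 1.30, edgeR adjusted p = 0.443 and 0.134).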

How the results depend on the processing

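Of 1089 values of single members under an alternative, 997 kept their direction and their side of the threshold, 38 lost the call, 16 gained it and 38 changed sign, none of the last called in the reported fit except Fmod in double KO against Recql KO. The fall of Aspn and Omd in Recql KO passed under every alternative run; Ogn, Fmod and Dcn are described beside their values. The cause of the changes below was not tested. For Recql KO against WT 5 members were called, with 3 without the filter on low counts, 3 in libraries high in Y-linked transcripts and 3 to 6 with a library left out. For double KO against WT 0 were called, with 1 by DESeq2 and 0 to 1 with a library left out. For double KO against Blm KO 0 were called, with 2 by DESeq2 and 0 to 1 with a library left out. In libraries high in Y-linked transcripts, which leave 1 library of each deficient genotype, none of the 4 reported calls passed for double KO against Recql KO, where Dcn alone was called (a count of 1), and 0 of 2 passed for the interaction (1 to 2 with a library left out) and 2 members were called for any difference. With coding transcript lengths 4 of 9 members kept their place in the WT order.

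Signs changed as follows (log2). With the Y-linked level as covariate, Prelp was -0.023 in Blm KO against WT and -0.14 in double KO against WT, and Bgn -0.014 in the latter. In libraries high in Y-linked transcripts, Dcn was 0.17 and Prelp -0.22 in Blm KO against WT, Bgn -0.34 and Prelp -1.70 in double KO against WT, Dcn -0.12 in double KO against Blm KO, Bgn -0.33 and Fmod -0.37 in double KO against Recql KO, and Fmod -1.12 in the interaction. In libraries low in them, Lum was 0.50 and Prelp 0.11 in double KO against Blm KO, and Prelp 0.67 in double KO against Recql KO. With a library left out, Lum was -0.10 to 1.34 and Aspn -0.013 to 0.40 in Blm KO against WT. Double KO against WT gave Bgn -0.090 to 0.20, Lum -0.035 to 1.05, Fmod -0.55 to 0.39, Prelp -0.59 to 1.07 and Vcan -0.27 to 0.33. Double KO against Blm KO gave Lum -0.80 to 0.39 and Prelp -1.25 to 0.41, double KO against Recql KO gave Prelp -1.25 to 0.41, and the interaction gave Dcn -1.32 to 0.012 and Bgn -0.33 to 0.00058.

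Replicate numbers showed no clear pairing of the libraries: 5 of 18 same-numbered pairs deviated together with r above 0.1 (range -0.17 to 0.23), and 4 of 12 libraries correlated best with their own number. Whether a number marks a shared litter or day cannot be told from these values. With the number as a replicate block, 1 member was called in double KO against Blm KO (Ogn, -1.47, edgeR adjusted p = 0.0172), Lum there was 0.28, and the calls over all genes there went from 291 to 762. The block also gave calls for Dcn in double KO against Recql KO (-1.34, edgeR adjusted p = 0.034) and for Ogn in the interaction (1.51, edgeR adjusted p = 0.0277), which for Ogn DESeq2 gave too (adjusted p = 0.0352).

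Over all genes, calls went from 112 to 947 (DESeq2), 45 (Y-linked covariate) and 2 (high Y only) in Blm KO against WT, and from 4444 to 1128 (high Y only) in Recql KO against WT. In double KO against WT they went from 18 to 337 (DESeq2), 0 (groups compared only), 50 (replicate block), 43 (covariate) and 3 (high Y only). In double KO against Blm KO they went from 291 to 1404 (DESeq2), 8 (groups compared only), 0 (high Y only) and 31 (low Y only), in double KO against Recql KO from 3681 to 373 (high Y only), in the interaction from 1554 to 2616 (DESeq2), 810 (covariate) and 5 (high Y only), and in the test of any difference from 5342 to 605 (high Y only). With a library left out the ranges were 31 to 572, 2692 to 4964, 8 to 28, 9 to 585, 2157 to 3875, 549 to 1836 and 3012 to 5872, in that order. The interaction was not run on the groups compared only, nor the test of any difference with DESeq2. Epyc and Ecm2 rest on few counts in Recql KO. Lum held 320, 76 and 1334 expected counts in the 3 Recql KO libraries, a wide spread.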
